A study of Mus musculus with 6 samples.

Results

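The genes examined were 10 transcription factors of the primitive streak and mesendoderm, namely T, Eomes, Mixl1, Gsc, Lhx1, Foxa2, Mesp1, Tbx6, Evx1 and Hhex. They were chosen by symbol from the 24288 gene symbols of the expression table, and where a symbol had several rows, the row with the highest total over the 6 libraries was kept. The libraries came from day 2 epiblast-like cells (EpiLCs), which are embryonic stem cells (ESCs) grown for 48 h in activin A (20 ng/ml), Fgf2 (12 ng/ml) and 1% KSR, a serum replacement, a model of the epiblast soon after implantation. Before induction, all cells were kept in N2B27 medium with PD0325091, CHIR99021 (3 μM) and LIF (1000 U/ml).

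Wild-type (WT) cells were the 129/Sv//Ev line CCE, and the Smad2/3 double-mutant (DKO) cells were clone KT15.1F6, labelled with the same strain. Per the study's methods, DKO lines were made by deleting exon 1 of Smad3 with Cas9 nickase in ESCs homozygous for the Smad2 allele tm1Rob. RNA was sequenced from 3 differentiations of each genotype. Because each genotype was 1 line, differences between the lines cannot be told apart from the genotype.

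Smad2 and Smad3 carry Nodal and activin signals from the receptors at the cell surface to the nucleus. In the embryo, Nodal together with Wnt and Bmp signals induces the primitive streak at the posterior side of the epiblast, where cells leave the epithelium and become mesoderm and definitive endoderm. T (brachyury), Eomes, Mixl1 and Evx1 are switched on in the streak, Mesp1 and Tbx6 mark nascent and paraxial mesoderm, and Gsc, Lhx1, Foxa2 and Hhex mark the anterior streak, its endoderm derivatives and, earlier, the visceral endoderm. EpiLCs model the stage just before the streak, so low levels of these genes are the usual state of such cultures.

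Depth was similar among the 6 libraries, from 57644143 to 63046034 reads over 1 row per gene, and 1 read was worth 0.518 to 0.569 normalized reads (reads divided by the library's size factor). Smad3 ranged from 799 to 873 normalized reads in WT and from 18.7 to 30.5 in DKO. Smad2 ranged from 4438 to 4610 in WT and from 4958 to 5176 in DKO, so reads over its whole gene body were not lower and do not check the Smad2 allele.

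The members that changed moved in both directions. T, Mixl1 and Tbx6 were lower in DKO EpiLCs, Eomes and Evx1 were higher, Gsc, Foxa2 and Hhex did not pass the test, and Lhx1 and Mesp1 had too few reads to enter it. A gene was called changed when its adjusted p from limma lay under 0.05 and its fold change exceeded 1.5. By that rule 5 of the 8 members tested changed, 3 lower and 2 higher, against a background of 15.4% of 17038 genes changed, 8.04% lower and 7.35% higher. Evx1 reached 10 reads in all 3 DKO libraries but in only 2 WT libraries. It thus entered the test through the group where it was high. The median log2 fold change of the 8 tested members was -0.18, beside 0.00 over all genes tested. The WT and DKO values of 5 members did not overlap, which was also true of 59.0% of all genes tested. In bulk samples, fewer cells of a type and less RNA per cell cannot be told apart.

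Promoters of the 4 changed members with an entry in the RefSeq promoter table are shown because they are the proximal sequences of the genes that moved apart. Each line holds the 250 bases before the start site that the promoter table uses, on the plus strand of GRCm38.p6 (mm10), and capitals mark any match to a searched motif. T lies at chr17:8434173-8434422, Tbx6 at chr7:126781233-126781482, Eomes at chr9:118477939-118478188 and Evx1 at chr6:52313248-52313497. The Eomes start site of that table lies just inside the gene body counted here, so the last 3 bases of its window fall within it.
T: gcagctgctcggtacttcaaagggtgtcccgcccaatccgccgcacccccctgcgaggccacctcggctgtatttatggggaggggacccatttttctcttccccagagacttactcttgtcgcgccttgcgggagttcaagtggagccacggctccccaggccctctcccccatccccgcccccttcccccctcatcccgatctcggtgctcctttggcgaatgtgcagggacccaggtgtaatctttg
Tbx6: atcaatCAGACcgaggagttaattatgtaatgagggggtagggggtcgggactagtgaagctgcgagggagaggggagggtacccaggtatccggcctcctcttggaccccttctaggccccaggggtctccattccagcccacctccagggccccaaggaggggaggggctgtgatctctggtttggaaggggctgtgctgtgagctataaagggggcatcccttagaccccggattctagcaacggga
Eomes: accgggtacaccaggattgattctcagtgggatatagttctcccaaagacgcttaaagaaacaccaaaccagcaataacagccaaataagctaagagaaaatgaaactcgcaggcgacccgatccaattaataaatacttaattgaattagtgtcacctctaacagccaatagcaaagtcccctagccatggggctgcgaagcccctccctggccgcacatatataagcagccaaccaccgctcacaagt
Evx1: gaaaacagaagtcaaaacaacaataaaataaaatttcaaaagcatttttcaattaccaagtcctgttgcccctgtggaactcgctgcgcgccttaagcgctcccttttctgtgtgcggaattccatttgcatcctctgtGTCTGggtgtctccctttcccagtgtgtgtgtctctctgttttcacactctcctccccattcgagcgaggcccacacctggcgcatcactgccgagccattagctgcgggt

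Promoter entries were matched for 9 of the 10 members, with none for Mixl1. These windows were searched on both strands for 5 short motifs, with matches to either strand in capitals and no overlap between different motifs. The Smad box CAGAC was found in 42.2% of 32817 promoter windows, and it occurred once each upstream of Tbx6 (244 bases before the start site), Evx1 (111 bases), Mesp1 (117 bases) and Lhx1 (60 bases). The GC-rich Smad site GGCGCC, in 9.59% of windows, occurred upstream of Hhex (16 bases) and of 1 start site of Foxa2 (147 bases). The Tcf/Lef core ATCAAAG, in 3.21% of windows, occurred upstream of Mesp1 (31 bases). The Foxh1 core ATCCACA, in 2.78% of windows, and the T-box core GGTGTGA, in 3.33%, were not found in any of the 9 members' windows. The windows of T, Eomes and Gsc held none of the 5 motifs. Tbx6 and Evx1, which changed in opposite directions, both held a Smad box in this window.

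T encodes the T-box factor that drives mesoderm formation and posterior axis extension, and it lies at chr17:8434423-8442496 on the plus strand. Its normalized reads (reads over the gene body, introns included, divided by the library's size factor) were 45.1, 44.4 and 48.0 in WT and 11.8, 21.0 and 13.5 in DKO. Every DKO library lay well below every WT library, with replicate 2 the highest of the DKO libraries. The mean fell from 45.8 ± 1.91 (SD, n = 3) to 15.4 ± 4.89 (SD, n = 3), and the log2 fold change in limma was -1.55 ± 0.23 (SE, adjusted p = 2.25e-06, 95% interval -2.02 to -1.08). The values rest on 78 to 90 reads in WT and 22 to 40 in DKO. The coefficient of variation among DKO libraries was 31.7%, against 18.5% from counting error if each read is independent. All T counts were even and the libraries were read from both ends, so both reads of a fragment may have been counted. Counting error would then exceed 18.5%, and no excess over it is claimed. A RefSeq locus not analysed here, LOC115486424, overlaps 106 bases of the T gene body.

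Mixl1, a paired-type homeobox gene of the streak that acts in mesoderm and endoderm formation, lies at chr1:180693043-180697034 on the minus strand. It stood at 24.7, 26.2 and 22.4 normalized reads in WT libraries and at 6.46, 11.0 and 6.22 in DKO libraries. Again no DKO library reached the WT range, and DKO replicate 2 was the highest of its group. Mixl1 fell from 24.4 ± 1.90 to 7.90 ± 2.71 (SD, n = 3 each), and the limma log2 fold change was -1.55 ± 0.29 (SE, adjusted p = 6.55e-05). The 95% interval of that change, -2.15 to -0.95, was close to that of T.

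Tbx6, a T-box gene required for paraxial mesoderm, lies at chr7:126781483-126785548 on the plus strand. WT libraries held 21.0, 15.9 and 21.9 normalized reads and DKO libraries 14.0, 12.6 and 9.33. The groups did not overlap, although WT replicate 2 and DKO replicate 1 were close to each other. Its mean fell from 19.6 ± 3.19 to 12.0 ± 2.39 (SD, n = 3 each). By limma this was a log2 change of -0.67 ± 0.28 (SE, adjusted p = 0.0436, 95% interval -1.24 to -0.10). Tbx6 was called in 8 of 16 alternative analyses, and its adjusted p ranged from 0.0345 to 0.155 over them. Without WT replicate 1 the adjusted p was 0.120, without WT replicate 3 it was 0.137, without DKO replicate 2 it was 0.0632, and without DKO replicate 3 it was 0.155.

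Eomes, the T-box gene needed in the epiblast for definitive endoderm and for mesoderm cells to leave the streak, and also a gene of trophoblast stem cells and visceral endoderm, moved the other way. It lies at chr9:118478186-118486132 on the plus strand. Normalized reads were 286.9, 309.6 and 320.0 in WT and 454.2, 493.3 and 459.8 in DKO. All DKO libraries lay above all WT libraries, and the spread within each genotype was small beside the gap. The mean rose from 305 ± 16.9 to 469 ± 21.1 (SD, n = 3 each), or by 0.62 ± 0.07 on the log2 scale (SE, limma adjusted p = 1.16e-08). The 95% interval, 0.48 to 0.75, spans the threshold of 0.58 that corresponds to 1.5-fold. Without WT replicate 1 the log2 fold change was 0.57 and without DKO replicate 2 it was 0.58, each below that threshold. Loci not analysed here overlap the ends of the Eomes gene body, namely antisense Gm33460 over 574 bases and Gm33408 over 547 bases.

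Evx1, an even-skipped-type homeobox gene of the posterior streak, had the largest log2 fold change among the tested members. Its gene body spans chr6:52313498-52318389 on the plus strand. WT values were 5.37, 4.55 and 5.33 normalized reads (8 to 10 reads per library), and DKO values were 30.1, 18.9 and 21.8 (36 to 56 reads). Each DKO library exceeded every WT library several times over. Evx1 rose from 5.09 ± 0.462 to 23.6 ± 5.83 (SD, n = 3 each), and limma put the log2 change at 1.99 ± 0.31 (SE, adjusted p = 5.66e-06, 95% interval 1.35 to 2.63). At least 10 reads were present in 2 WT and 3 DKO libraries, so Evx1 passed the filter on low values through the DKO group.

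The long non-coding RNA gene Evx1os lies antisense to Evx1, at chr6:52308389-52314832, and shares 1335 bases with it. The use of strand in counting was not stated, so reads in the shared bases cannot be assigned to either gene. Evx1os held 4, 4 and 14 reads in WT and 30, 19 and 26 reads in DKO, a log2 change of 1.65 ± 0.42 (SE, limma adjusted p = 0.00160). It was higher in each DKO library than in any WT library, as Evx1 was. Taking all Evx1os reads away from Evx1 left 6, 4 and -4 reads in WT, so no fold change is given for the remainder. The same subtraction left 26, 17 and 16 reads in DKO. The negative remainder shows that not all Evx1os reads were counted in Evx1, so the subtraction does not measure the shared part. What the shared bases add to the Evx1 change was not tested. This subtraction was chosen after the values were seen.

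**Figure D1:**
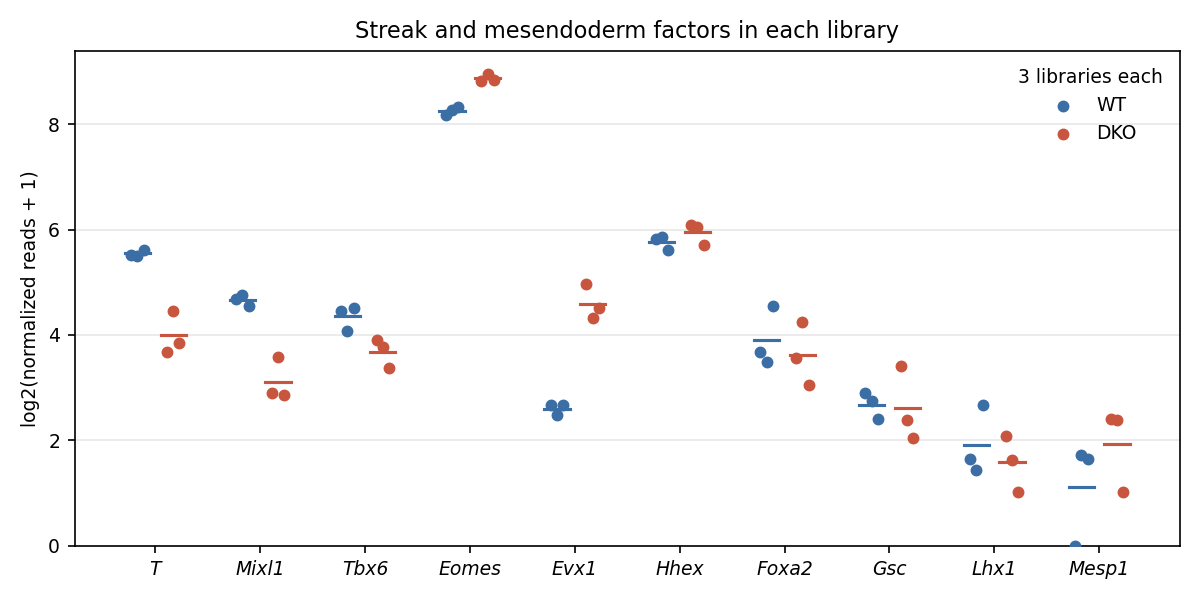
Level of each member in each library, as log2(normalized reads + 1) on the vertical axis, with 1 point per library and a bar at the mean of the 3 libraries of a genotype (WT blue, DKO red). T, Mixl1 and Tbx6 have all DKO points below all WT points, Eomes and Evx1 have all DKO points above, and the other 5 members overlap.

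The members of the anterior streak and endoderm gave no call. Hhex, a homeobox gene of anterior visceral and definitive endoderm (chr19:37434841-37440731, plus strand), held 55.3, 56.9 and 48.0 normalized reads in WT and 66.7, 65.1 and 51.3 in DKO. DKO replicate 3 fell inside the WT range. The log2 fold change was 0.18 (limma adjusted p = 0.338), and its 95% interval, -0.14 to 0.51, lay under 1.5-fold in both directions.

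Foxa2, a forkhead gene of the anterior streak, node and endoderm (chr2:148042877-148046969, minus strand), held 11.8, 10.2 and 22.4 normalized reads in WT and 10.8, 17.9 and 7.26 in DKO. Its groups overlapped, and a library of each genotype stood above the others. The log2 fold change of -0.29 (limma adjusted p = 0.493, 95% interval -0.999 to 0.412) became 0.03 without WT replicate 3.

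Gsc, the homeobox gene of the organizer and anterior streak (chr12:104471209-104473236, minus strand), held 6.45, 5.69 and 4.27 normalized reads in WT and 9.69, 4.20 and 3.11 in DKO. DKO libraries lay on both sides of the WT range. The log2 fold change was -0.07 (limma adjusted p = 0.913), with a 95% interval from -0.98 to 0.85, so changes between 0.507-fold and 1.80-fold were not resolved at this depth.

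Lhx1 and Mesp1 stayed below the filter on low values. Lhx1, a LIM homeobox gene of the node and anterior mesendoderm (chr11:84517975-84525534, minus strand), had 4, 3 and 10 reads in WT and 6, 4 and 2 in DKO. The sums were 17 reads (exact Poisson 95% interval 9.90 to 27.2) and 12 reads (6.20 to 21.0), so no difference was detectable at this depth. Mesp1, the bHLH gene of nascent cardiac and cranial mesoderm (chr7:79792241-79793590, minus strand), had 0, 4 and 4 reads in WT and 8, 8 and 2 in DKO. Its sums of 8 reads (3.45 to 15.8) and 18 reads (10.7 to 28.4) had overlapping intervals. All Mesp1 counts and most Lhx1 counts were even, so both reads of a fragment may have been counted. The intervals treat each read as independent and would then be too narrow even for counting error, and they cover no other spread. In a fit without the filter, limma gave a log2 fold change of -0.34 for Lhx1 (adjusted p = 0.575) and 0.82 for Mesp1 (adjusted p = 0.225).

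**Figure D2:**
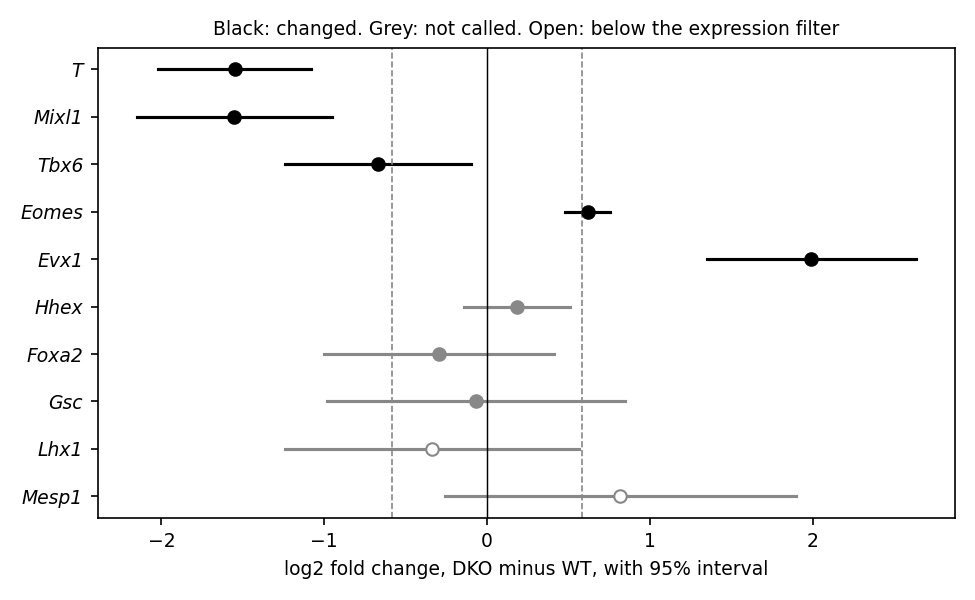
Log2 fold change of each member, DKO minus WT, with its 95% interval from limma. Dashed lines mark 1.5-fold, black points are changed, grey points are not called, and open points (Lhx1, Mesp1) come from the fit without the filter. Intervals of T, Mixl1 and Evx1 lie outside the dashed lines, while those of Eomes and Tbx6 cross 1 of them.

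Per kilobase of gene body, Eomes was the highest member in both genotypes, at 38.4 ± 2.13 normalized reads per kb in WT and 59.0 ± 2.66 in DKO (SD, n = 3 each). That placed it at the 69.1 percentile of 24043 genes in WT and at the 73.9 percentile in DKO. Hhex came next in both genotypes, at 9.07 and 10.4 per kb. In WT the order went on with Mixl1 (6.12), T (5.68), Tbx6 (4.82), Foxa2 (3.62), Gsc (2.70), Mesp1 (1.09), Evx1 (1.04) and Lhx1 (0.405). Neighbours whose WT libraries overlapped were Mixl1 with T, Tbx6 with Foxa2, Foxa2 with Gsc, and Mesp1 with Evx1. In DKO, Evx1 stood above the rest at 4.83 per kb, followed by Tbx6 (2.95), Foxa2 (2.92), Gsc (2.79), Mesp1 (2.36), Mixl1 (1.98) and T (1.91), each overlapping the next. Lhx1 was again the lowest, at 0.281 per kb. On this measure T passed from a place among the middle members to one near the bottom, and Evx1 from near the bottom to the place after Hhex. The Evx1 values include any reads shared with Evx1os, so its place in DKO is uncertain. Exons made up 28.7% of the gene body of T, 58.8% of that of Evx1 and 85.3% of that of Hhex. An order per kb of exon was not taken and could differ.

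Ratios taken inside a library are free of the scaling between libraries. Eomes and T were paired because these T-box members move against each other, so the ratio and its p are no separate support. The ratio of Eomes to T per kb of gene body was 6.46, 7.09 and 6.77 in WT and 39.0, 23.9 and 34.7 in DKO. The ranges were far apart, and DKO replicate 2, where T was highest, had the lowest DKO ratio. The log2 ratio was 2.23 higher in DKO (exact permutation test, two-sided p = 0.1, the smallest that 3 against 3 libraries allow). Leaving out each library in turn gave differences from 2.09 to 2.44. The ratio of Eomes to Mixl1 moved the same way, from 5.83 to 7.18 per kb in WT libraries to 22.5 to 37.1 in DKO libraries.

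The ratio of T to Mixl1 overlapped between genotypes. It was 0.934 ± 0.114 per kb in WT and 0.973 ± 0.0868 in DKO (SD, n = 3 each) (exact permutation test, two-sided p = 0.5). Of the ratios taken, that of Evx1 to T differed most between genotypes. Per kb, it ranged from 0.169 to 0.196 in WT and from 1.49 to 4.20 in DKO. On that scale Evx1 was below T in each WT library and above it in each DKO library. Without division by length, the ratio in DKO replicate 2 was 0.9, so Evx1 was below T there. These ratios include any reads that Evx1 shares with Evx1os.

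**Figure D3:**
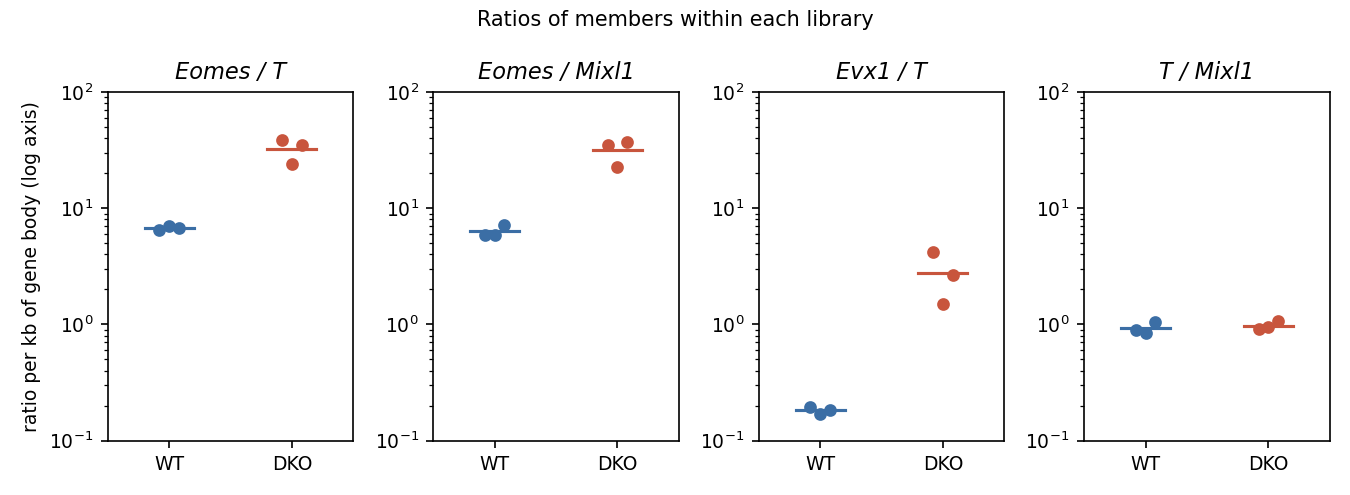
Ratios between members within each library, per kb of gene body, on a log axis (1 point per library, bar at the mean, WT blue, DKO red). The ratio of Eomes to T rises from 6.46 to 7.09 in WT to 23.9 to 39.0 in DKO, while the ratio of T to Mixl1 overlaps between genotypes.

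The genes lying near the 3 lowered members were also described. Of the genes tested within 250 kb, 3 of 6 around T, 4 of 11 around Mixl1 and 3 of 28 around Tbx6 were lower in DKO. Over all 17038 genes tested the share called lower was 8.04%, and the count around Tbx6 was close to it. The nearest lowered gene was 11.7 kb from T, 196 kb from Mixl1 and 61.4 kb from Tbx6. Genes between Mixl1 and its nearest lowered neighbour on that side were not called.

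**Figure D4:**
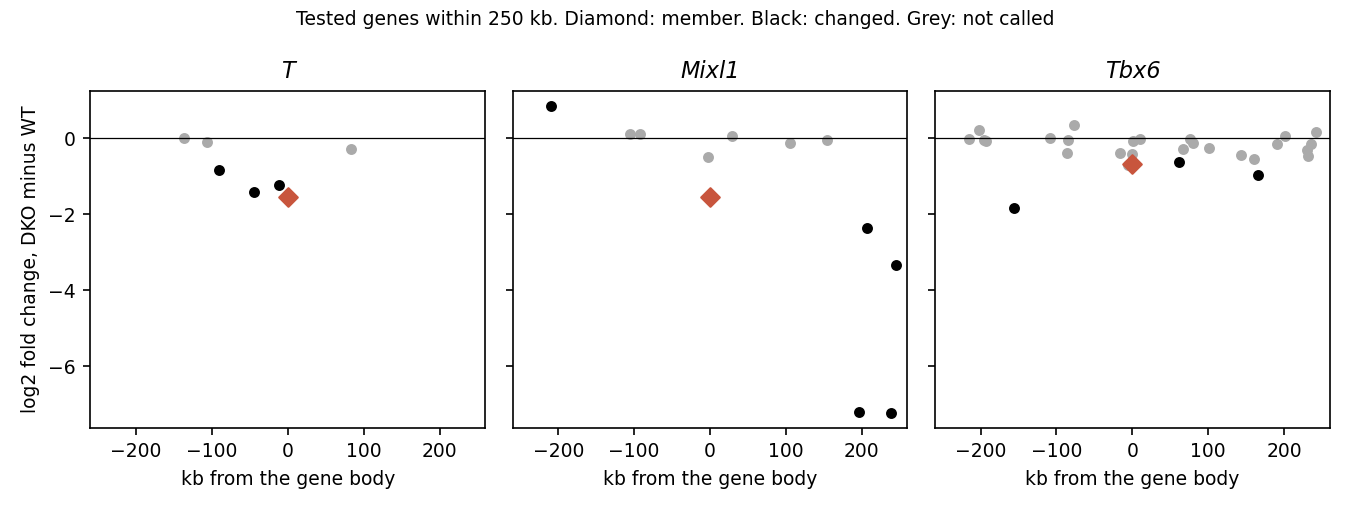
Log2 fold change, DKO minus WT, of tested genes within 250 kb of T, Mixl1 and Tbx6, against the distance from the gene body in kb (positive towards higher coordinates). Black is changed, grey not called, and the diamond is the member. Lowered genes lie 11.7 to 90.3 kb on 1 side of T, and 196 to 245 kb from Mixl1.

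Other genes of the streak were read from lists of known inducers, antagonists and targets, in which a gene may stand more than once (Cdx2, Hand1, Tbx3, Gata4, Gata6, Sox17 and Foxa1). Of 49 changed genes in all lists, 8 reached 10 reads in every DKO library but not in every WT library, and 5 the reverse. The 8 were Cfc1, Frzb, Cdx4, Hand1, Hnf4a, Gata2, Gata3 and Esx1, and the 5 were Wnt3a, Fgf8, Snai2, Cxcr4 and Tbx22. These genes passed the filter on low values through the group where they were high. The shares to set beside the counts of each list are 8.04% lower and 7.35% higher, over all 17038 genes tested. Of 14 signals and cofactors that induce the streak, all tested, 5 were lower and 2 were higher, with a median log2 fold change of 0.04. Fgf8, whose product drives cell movement out of the streak, fell to 4.40 ± 2.38 normalized reads in DKO from 146 ± 11.0 in WT, a log2 change of -4.87. Tdgf1, the Nodal co-receptor, fell by 0.93 on the log2 scale, while its paralogue Cfc1 rose by 1.58. Nodal itself was higher but under 1.5-fold, so it was not called. WT stood at 3053 ± 76.6 normalized reads and DKO at 3726 ± 220.1 (log2 fold change 0.29, limma adjusted p = 1.99e-07). Wnt3a (-1.16), Bmp4 (-0.77) and Gdf1 (-0.64) were the other lower genes, and Pcsk6, a proprotein convertase that processes Nodal, rose by 1.19. Wnt3, the Wnt ligand that initiates the streak, was lower but under 1.5-fold, so it was not called (-0.41, limma adjusted p = 0.00197).

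Antagonists of these signals held the largest changes among the listed genes. Of 10 genes, 8 were tested, 2 were lower and 1 was higher, with a median of -0.20. Lefty1 and Lefty2, feedback inhibitors of Nodal, fell with log2 fold changes of -7.22 and -7.21, and Frzb, a secreted Wnt inhibitor, rose by 1.30. Among 10 Wnt response genes of the streak, 9 were tested, 2 were lower (Nkx1-2, -1.28, and Sp5, -1.17) and 2 were higher (Cdx2, 1.50, and Cdx4, 1.21), with a median of -0.05. Axin2, a general Wnt feedback gene, was at 0.54 (limma adjusted p = 8.42e-10) and was not called because its change lay under 1.5-fold. The Wnt response genes thus held members on both sides, as the 10 factors did. Cdx4 and Evx1, each on the higher side, passed the filter through DKO.

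Mesoderm genes downstream of the streak divided in the same manner. Of 16 genes, 10 were tested, 4 were lower and 4 were higher, with a median of -0.17. The lower genes included the Notch ligands Dll3 (-1.74) and Dll1 (-1.18), and Snai2 (-1.16). The higher genes were Kdr, the receptor of blood and vessel progenitors (2.01), Hand1 (1.69), Pdgfra (1.16) and Mesp2 (0.84). Snai1, which represses E-cadherin in the streak, was not called (-0.06). Of 11 definitive endoderm and node genes, 9 were tested, Cxcr4 was lower (-1.14), Gata6 (1.18) and Foxj1 (0.63) were higher, and the median was -0.03. Of 14 T-box genes outside the 10 members, 10 were tested, Tbx22 (-1.56) and Tbx21 (-0.92) were lower, Tbx3 (1.78) and Tbx15 (1.13) were higher, and the median was 0.04.

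**Figure D5:**
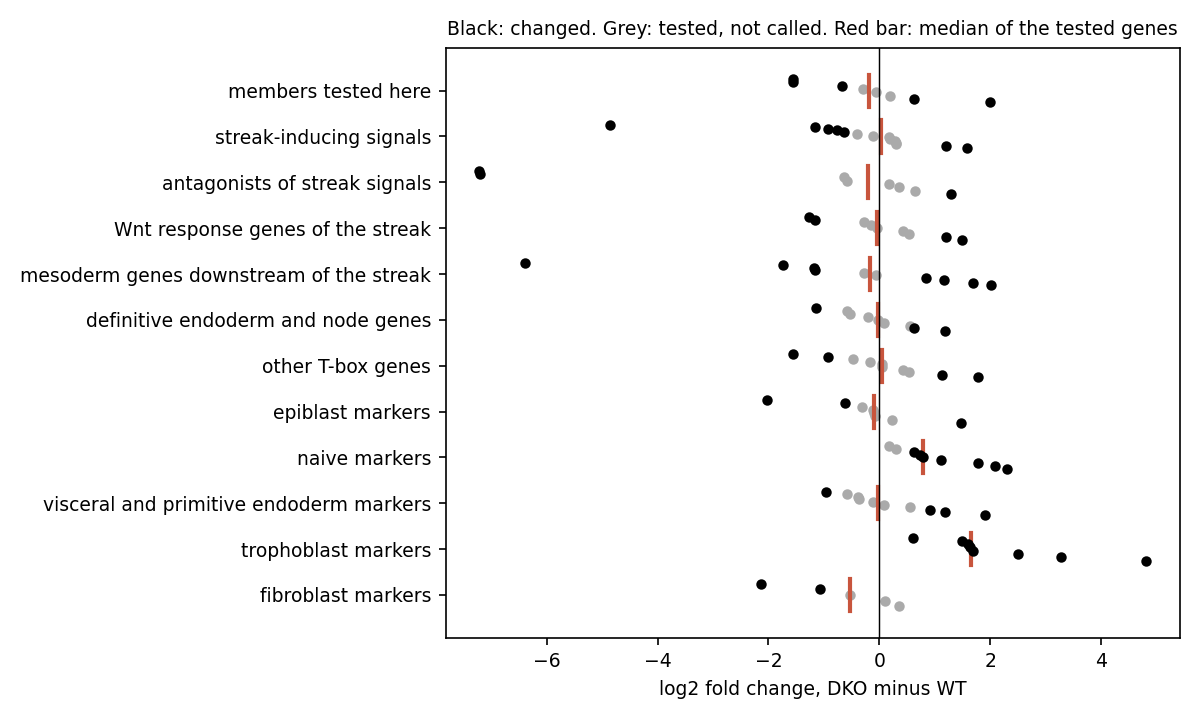
Log2 fold change, DKO minus WT, of every tested gene in each list (black changed, grey not called, red bar the median). The members and the streak, mesoderm and T-box lists hold changed genes on both sides of 0 with medians from -0.20 to 0.04, while the 8 tested trophoblast markers are higher, 4 of which passed the filter through DKO.

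The labelled cell type was checked with markers. Beside the marker counts here and below stand the shares over all 17038 genes tested, 8.04% lower and 7.35% higher. Epiblast markers were abundant in every library, with summed values from 109613 to 113649 normalized reads in WT and from 106000 to 107480 in DKO. Dnmt3b held most of these sums, at means of 70390 in WT and 65421 in DKO. Of these 8 genes, Fgf5 (-2.02) and Pou3f1 (-0.62) were lower and Sox2 was higher (1.47). Of 9 naive pluripotency markers, 7 were higher and none was lower, with a median of 0.79 and sums of 3774 to 4016 in WT and 6477 to 6695 in DKO.

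Several members are also genes of extra-embryonic tissue, so markers of that tissue stand beside them. Of 9 trophoblast markers, 8 were tested and all 8 were higher in DKO, like Eomes, with sums of 213 to 228 normalized reads in WT and 810 to 1024 in DKO. Gata3 rose by 4.82 and Gata2 by 3.28 on the log2 scale, whereas Elf5, a defining trophoblast stem cell gene, had 0 to 6 reads per library and was not tested. Gata2, Gata3, Esx1 and Hand1 reached 10 reads in all 3 libraries of DKO but not of WT, so 4 of the 8 passed the filter through the group where they were high, and the count of 8 is no support for a direction. Of 13 visceral and primitive endoderm markers, 10 were tested, 1 was lower (Apob, -0.95) and 3 were higher (Hnf4a, 1.90, Gata6, 1.18, and Cubn, 0.92). Their sums were 484 to 523 in WT and 486 to 564 in DKO, and Ttr, an abundant visceral endoderm transcript, had at most 2 reads in any library. Of 7 fibroblast markers, 5 were tested, Dcn (-2.14) and Col1a2 (-1.07) were lower, and the sums were 1574 to 1653 in WT and 476 to 521 in DKO. Dcn held most of the fibroblast sums, at means of 1330 in WT and 300 in DKO. The part of these tissues in the members' changes was not tested.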

How the data were processed

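RNA sequencing was carried out on 3 WT and 3 DKO EpiLC libraries. The labels give stranded libraries of ribosome-depleted total RNA, read from both ends over 75 cycles. As the study describes, ribosomal reads were filtered out with bowtie2, the remainder was mapped to mm10 with STAR, duplicates were dropped with Samtools, and refGene gene bodies were counted. Versions of these tools, and whether counting used strand, are not given in the sources used here. The deposited expression table holds a signal, namely reads divided by 1 size factor per library (1.76 to 1.93), without length scaling. The authors' DESeq2 comparison (means, fold changes, standard errors, Wald statistics and p-values) was not used.

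Multiplying by the size factor gave whole reads for 100% of values (tolerance 0.01 reads). Of 33812 rows, 138 without a symbol (0.517% of reads) were left out. The main test was limma (3.58.1, R 4.3.3, two-sided, variance trend) on log2(value + 1), a scale that understates changes of low genes, with Benjamini-Hochberg adjustment over the 17038 genes kept by filterByExpr of edgeR (4.0.16). Errors of log2 fold changes are standard errors. The quasi-likelihood test of edgeR called 2638 genes on the recovered reads and DESeq2 (1.42.0) called 2475, against 2623 by limma. Alternatives covered pseudocount, filter, row choice, normalization, tool, fold threshold, replicate block and each library left out.

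Named genes are the 10 members, Smad2, Smad3, changed or pivotal genes of 11 lists, genes overlapping a member, and, for T and Eomes, the 3 genes most correlated over the 6 libraries. Neighbours within 250 kb of a member that stand in no list were named after their values were seen. Some genes that this rule selects are not reported here by name. Members and lists were chosen with earlier results of these data known. Positions and promoter sequences came from RefSeq (GRCm38.p6) and overlaps also from GENCODE. The labels describe libraries of a genotype as separate differentiations. Reads carry no molecular identifiers, and the counting errors and intervals treat each read as independent. Many low counts were even, so both reads of a fragment may have been counted. Counting errors would then be understated and the intervals too narrow, and they cover no other spread.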

Additional observations from a re-analysis of the deposited data

How the results depend on the processing

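The number of changed genes was 9098 without a fold threshold and 1115 in the limma test against 1.5-fold itself, beside 2623, and it ranged from 2529 to 2610 when each library was left out in turn. The number of changed members, 5, became 3 (T, Mixl1 and Evx1) in the test against 1.5-fold and ranged from 3 to 5 with a library left out. It was 3, the same genes, without WT replicate 1 or without DKO replicate 2. Within 1.5 times of the main value stayed 16 of 18 alternatives for genes and 15 of 18 for members. The calls of T, Mixl1 and Evx1 held in 16 of 16 alternatives (the Evx1os subtraction aside), with log2 fold changes from -1.78 to -1.34, from -1.79 to -1.21 and from 1.49 to 2.21. Tbx6 lost its call with a pseudocount of 5 (log2 fold change -0.54), without the filter (adjusted p = 0.0611), by DESeq2 (adjusted p = 0.0910), with the replicate block (adjusted p = 0.0545) and without 4 of the libraries. With the replicate number as a block, 2602 genes and 4 members were called, and the block changed the call of Tbx6 alone among the members. The replicate numbers are not stated to pair libraries, and deviations of same-numbered WT and DKO libraries from their group means correlated at -0.00787, -0.0252 and 0.00475 over 13071 genes, and 0 of 6 libraries correlated best with its own number. Gsc turned positive with edgeR (0.043) and DESeq2 (0.046), and ranged from -0.47 to 0.22 with a library left out. Foxa2 ranged from -0.61 to 0.027 in the same way. The difference in the log2 ratio of Eomes to T was 2.17 with a pseudocount of 1, and 2.09 to 2.44 with a library left out. The cause of these shifts was not tested. At this depth, floors of 3 reads equal 1.56 to 1.71 normalized reads, so Lhx1 and Mesp1 lie close to what can be counted.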

Other observations

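Tested genes within 250 kb of a member were read as a further description, and those outside the lists were chosen after their values were seen. Of 6 such genes around T, 3 were lower and none was higher, namely T2 (log2 fold change -1.24, 11.7 kb from T), Gm16702 (-1.41, 45.0 kb) and Prr18 (-0.83, 90.3 kb). All 3 lie on the same side of T. Over all genes tested, 8.04% were called lower and 7.35% higher. Around Mixl1, 4 of 11 genes were lower, and these included Lefty2 (-7.21, 196 kb), Lefty1 (-7.22, 238 kb) and Tmem63a (-3.35, 245 kb), while Stum was higher (0.85, 210 kb). Around Tbx6, 3 of 28 genes were lower and none was higher. Eomes had 2 tested neighbours, Golga4 (0.33, limma adjusted p = 2.24e-10) and Itga9 (0.46, limma adjusted p = 0.000306). Both lay under 1.5-fold, so neither was called. Around Gsc, 2 of 3 genes were higher, Serpina3m (2.26, 77.0 kb) and Serpina3n (1.20, 56.9 kb), which are paralogues, so their separate values are uncertain. Around Mesp1, 3 of 10 genes were higher, namely Mesp2 (0.84, 17.1 kb), Anpep (0.68, 28.2 kb) and Arpin (0.78, 132 kb). Around Evx1, Evx1os alone of 6 genes was called. Neighbours gave no call among 6 around Hhex and 2 around Lhx1, and none was tested around Foxa2.

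Among 17037 genes, those whose log2 values followed T most closely over the 6 libraries were AI504432 (Pearson r = 0.998), Slc43a3 (0.997) and Phf5a (0.997). For Eomes they were Ndrg2, Top2b and Spred1 (0.999 each). With 2 groups of 3 libraries these values mostly follow the genotype, and 998 genes reached 0.95 with T and 1920 with Eomes.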
